A study of Mus musculus with 8 samples.

Results

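Phospho1 and 9 further enzymes of choline and ethanolamine phospholipid metabolism (Chka, Chkb, Pcyt1a, Chpt1, Cept1, Etnk1, Pcyt2, Selenoi and Pemt) were followed in the jejunal mucosa. Phospho1 was taken because the study named it, and the others because they carry out the head group steps around it. They were 10 of the 56980 genes in the count tables, and 9 of them were among the 15986 genes with enough reads to test. RNA came from scrapings of the luminal surface of the jejunum of male mice. In the Adipoq-F2-KO group, mice with floxed FFA2 alleles (FFA2, gene Ffar2, is a receptor for short-chain fatty acids) also carried Adiponectin-Cre, a recombinase transgene expressed in adipocytes. The FFA2 fl/fl group, the floxed controls, were co-housed littermates with the floxed alleles and no Cre, so the Cre transgene and the deletion cannot be told apart. Both groups ate chow until 12 weeks of age and then, in thermoneutral housing, a Western diet with 10% fructooligosaccharides for 2 weeks. There were 4 libraries per genotype. The labels number the samples without stating that each came from a different mouse, so the p-values below measure the spread between these samples.

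Phosphatidylcholine and phosphatidylethanolamine are the main membrane phospholipids, and phosphatidylcholine also coats the chylomicrons in which enterocytes export dietary fat. Cells build them by the CDP (Kennedy) pathways: a kinase phosphorylates choline or ethanolamine, a further enzyme activates the product with CTP, and a transferase joins it to diacylglycerol. PHOSPHO1 runs the first step backwards, as a phosphatase of phosphocholine and phosphoethanolamine, and is best known for its part in the mineralization of cartilage and bone.

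The libraries held between 6007654 and 21712776 counts. The 5 deep libraries (floxed 1, 2 and 4, Adipoq-F2-KO 1 and 2) held at least 15204995, and the 3 shallow ones (floxed 3, Adipoq-F2-KO 3 and 4) at most 6541595. Counts were divided by the size factor of their library, and the results are called normalized counts. Ffar2 was low in both genotypes, at 7.27, 9.49, 4.18 and 8.51 normalized counts in floxed libraries 1 to 4, against 10.3, 7.44, 12.0 and 5.64 in Adipoq-F2-KO libraries 1 to 4. Because the deletion was made in adipocytes, this gene does not check the genotype of the jejunal samples. All 10 villus enterocyte markers were expressed, with summed normalized counts of 605700 to 666700 in the floxed group, against 593500 to 683400 in the Adipoq-F2-KO group. Smooth muscle markers summed to 3768 to 30430 in the floxed libraries, with floxed 3 the highest, and to 4149 to 12590 in the Adipoq-F2-KO libraries. Of 8 adipocyte markers, 7 were higher in every shallow than in every deep library, with summed normalized counts of 345.9 to 978.7 against 15.8 to 37.2. The exception was Cidec.

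No member passed an adjusted p of 0.05 between the genotypes in DESeq2 (Wald test, Benjamini-Hochberg adjustment over all tested genes), where 6 of all tested genes (0.0375%) did. At an unadjusted p below 0.05 there were 2 of 9 members, Phospho1 and Chka, both lower in Adipoq-F2-KO. Of all tested genes, 1.38% were lower, 1.65% higher and 3.03% different in either direction at that threshold. For no member were the genotypes wholly apart, against 2.12% of all tested genes (1.10% higher and 1.02% lower in Adipoq-F2-KO). Of the 9 log2 fold changes (Adipoq-F2-KO over floxed controls) 3 were above 0 and 6 below it, with a median of −0.12, while the median of all tested genes was −0.01. The 95% interval lay within a log2 fold change of 1 in either direction for 8 of 9 members, Phospho1 being the exception. In these bulk samples fewer cells of a type and less RNA per cell cannot be told apart.

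**Figure D1:**
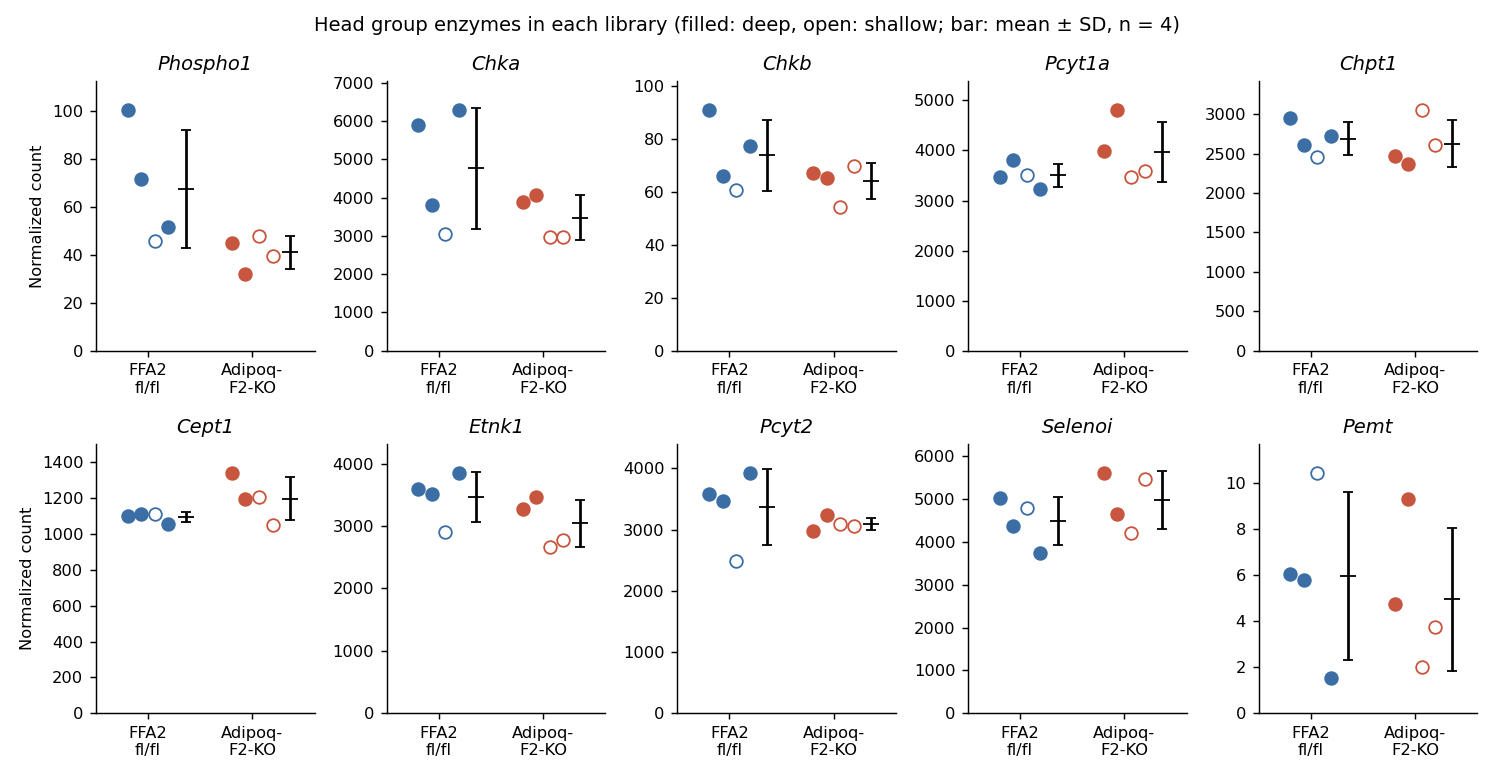
Normalized counts of the 10 members in each library (vertical axis, starting at 0 and scaled for each gene), with floxed controls in blue, Adipoq-F2-KO in red, deep libraries filled and shallow ones open, and the mean ± SD of 4 libraries beside each group. The genotypes overlap for every member, and the Phospho1 values of floxed 1 and 2 (100.6 and 71.7) lie above all 4 Adipoq-F2-KO values.

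Phospho1 (ENSMUSG00000050860) lies on the plus strand at chr11:95824499-95832140 in GRCm38, the build named in the submitters' processing notes, as annotated in GENCODE M21. Coordinates and overlaps below are from that annotation, although 4907 of the deposited gene identifiers have no symbol in it, so the reads were counted on another release. The 250 bases before the annotated RefSeq start are shown for Phospho1, the member chosen by the study, and for Pcyt1a, whose enzyme sets the pace of the choline pathway (sequences from RefSeq on GRCm38.p6, given 5′ to 3′ on the strand of the gene). Capitals mark an E-box (CACGTG) in the Phospho1 window at chr11:95824250-95824499 and a sterol regulatory element (TCACNCCAC) in the Pcyt1a window at chr16:32430671-32430920.
Phospho1: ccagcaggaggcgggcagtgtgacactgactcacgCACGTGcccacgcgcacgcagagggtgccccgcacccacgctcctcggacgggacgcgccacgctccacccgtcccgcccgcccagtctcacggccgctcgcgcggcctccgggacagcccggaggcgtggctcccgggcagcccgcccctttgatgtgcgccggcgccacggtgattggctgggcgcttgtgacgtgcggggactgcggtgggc
Pcyt1a: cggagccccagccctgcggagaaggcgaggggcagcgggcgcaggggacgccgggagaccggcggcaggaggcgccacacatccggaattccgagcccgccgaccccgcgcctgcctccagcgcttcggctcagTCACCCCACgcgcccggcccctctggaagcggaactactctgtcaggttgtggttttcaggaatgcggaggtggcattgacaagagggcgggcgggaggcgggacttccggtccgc
Both motifs were searched on both strands in the 14 windows of the 9 members with an entry (Pcyt2 had none). The E-box occurred in the Phospho1 window alone, and the sterol element in 2 of the 3 Pcyt1a windows, which share bases. No member window held both. Of all 32851 promoter windows of the same length, 6.02% held the E-box and 1.05% the sterol element. A match is a description of the letters and does not show that a factor binds.

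The Phospho1 gene shares most of its exon bases with its neighbours. Of 2029 exon bases, 1818 (89.6%) are also exon of Zfp652, a zinc finger gene on the same strand, and 1708 (84.2%) lie opposite exons of Abi3 on the other strand. The sharing with Zfp652 comes from 1 of its 4 annotated transcripts, Zfp652-203, which is annotated as subject to nonsense-mediated decay. The first exon block, chr11:95824499-95824709 with 211 bases (10.4%), is the only block free of both genes. The second block, of 110 bases at chr11:95828666-95828775, is shared with Zfp652. The last, of 1708 bases at chr11:95830433-95832140, is shared with both. Under this annotation, a read counter set to drop reads that fall on more than 1 gene would count Phospho1 from the first block alone, and the setting used was not stated, so its counts are uncertain as a measure of the whole transcript.

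**Figure D2:**
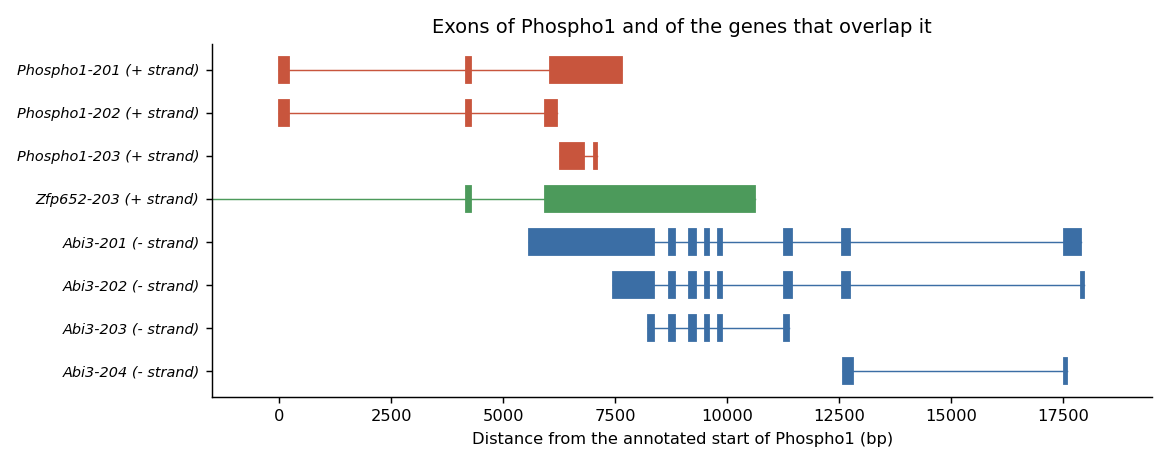
Annotated transcripts around Phospho1 drawn to scale, with distance from the annotated Phospho1 start in bp on the horizontal axis, boxes for exons and lines for introns (red Phospho1, green the Zfp652 transcript that shares its exons, blue Abi3). Only the first Phospho1 exon has no exon of another gene above or below it.

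Phospho1 was detected in every library at a low level. Raw counts of 166, 136, 22 and 67 in floxed libraries 1 to 4, against 57, 52, 24 and 21 in Adipoq-F2-KO libraries 1 to 4, lay behind it. As normalized counts these were 100.6, 71.7, 46.0 and 51.9 in the floxed group, against 45.0, 32.2, 48.1 and 39.5 in the Adipoq-F2-KO group. The values of floxed 1 and 2 stood above the rest, and 3 of 4 Adipoq-F2-KO libraries lay below all floxed controls, with Adipoq-F2-KO 3 just above floxed 3. The means were 67.5 ± 24.6 (SD, n = 4) and 41.2 ± 6.94 (SD, n = 4). The log2 fold change was −0.76 (standard error, SE, 0.32, 95% interval −1.38 to −0.14), a ratio between 0.385 and 0.908, with an unadjusted p of 0.0163 and an adjusted p of 0.9998 in DESeq2. The study reported higher Phospho1 in control jejunum from this same RNA sequencing, so the direction here is not independent evidence. By qPCR it also reported lower Phospho1 in rat intestinal cells (IEC18) given medium from adipocytes with FFA2 knocked down. That drop was partly restored when medium from control adipocytes followed.

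The direction held under all 17 alternatives and the unadjusted p was below 0.05 in 15 of them, while the adjusted p was below 0.05 in none (in 1, without Adipoq-F2-KO 3, DESeq2 gave no adjusted p). The difference was smallest without floxed 1, at −0.50 (unadjusted p = 0.118, DESeq2), and without Adipoq-F2-KO 2 it was −0.64 (unadjusted p = 0.0663, DESeq2). Among the 5 deep libraries the genotypes did not overlap, at 51.9 to 100.6 normalized counts in 3 floxed and 32.2 to 45.0 in 2 Adipoq-F2-KO libraries, but with so few libraries 12.1% of all tested genes were lower in this way and 23.6% did not overlap in either direction. The log2 fold change there was −0.96 (DESeq2, adjusted p = 0.385). Among the 3 shallow libraries, with raw counts of 21 to 24, floxed 3 was at 46.0 normalized counts, against 48.1 and 39.5 in Adipoq-F2-KO 3 and 4. What difference could be seen at such counts was not tested. With the depth class as a term in the fit the log2 fold change was −0.70.

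**Figure D3:**
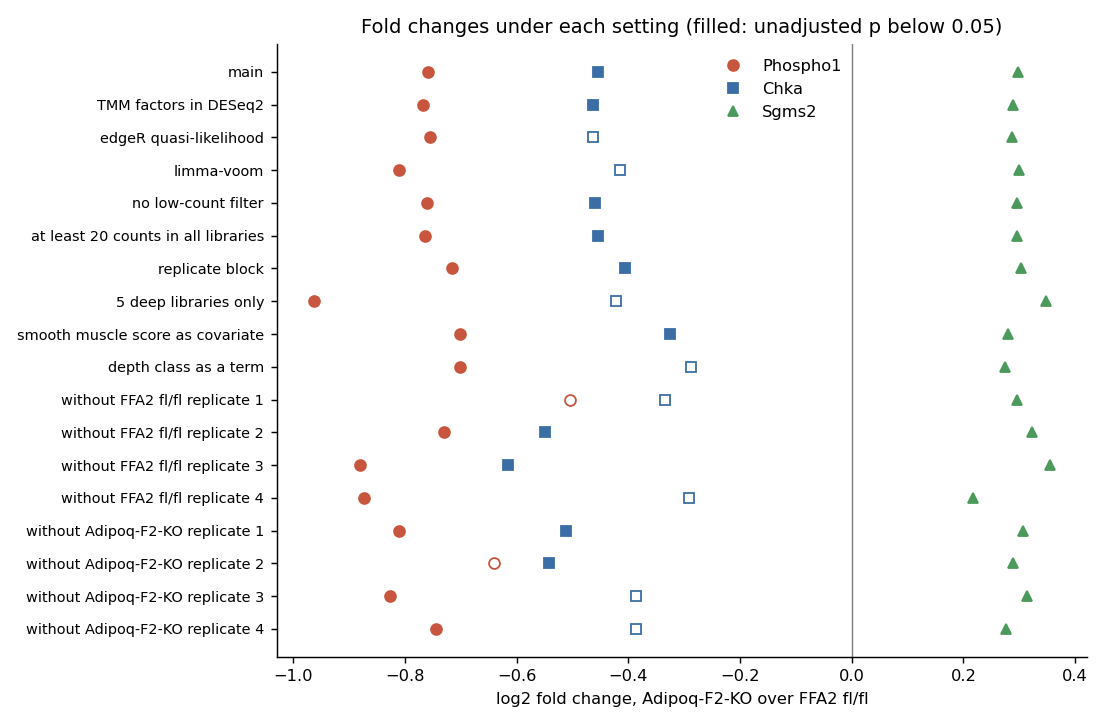
Log2 fold change, Adipoq-F2-KO over floxed controls (horizontal axis), of Phospho1 (red circles), Chka (blue squares) and Sgms2 (green triangles) under the reported setting (main) and each alternative in turn, filled where the unadjusted p was below 0.05. Phospho1 ranges from −0.96 to −0.50, Chka from −0.62 to −0.29 and Sgms2 from 0.22 to 0.36, and none of them passes an adjusted p of 0.05.

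Neither overlapping gene passed the test. Zfp652 had 1014, 936.6, 1010 and 892.3 normalized counts in the floxed group, against 1043, 1007, 1111 and 1128 in the Adipoq-F2-KO group. Its log2 fold change was 0.15 (SE 0.09, DESeq2, adjusted p = 0.9998). Abi3, an adaptor of actin remodelling in immune cells, had 37.0, 41.6, 37.6 and 65.8 and then 52.9, 52.7, 46.1 and 28.2 normalized counts in the same order. Its log2 fold change was 0.00 (SE 0.31, DESeq2, adjusted p = 0.9998).

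Markers of bone and cartilage, where PHOSPHO1 is best known, were low. Of 8 of them 2 had enough reads to test, and Ibsp and Sp7, which define bone-forming cells, were at 0 in every library. Their summed normalized counts were 64.8 to 112.9 in the floxed group, against 88.0 to 102.1 in the Adipoq-F2-KO group, with floxed 1, the highest in Phospho1, the lowest in this sum. Erythroid markers were likewise low, at 11.1 to 29.3 in sum with Hba-a2, Hbb-bt and Slc4a1 at 0. Of 8 erythroid markers 1, Alas2, had enough reads to test, and it alone was at 7.89 to 25.1 normalized counts. The part of these cells in the Phospho1 counts was not tested.

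The genes whose pattern over the 8 libraries was most like that of Phospho1, by Pearson's r of log2 normalized counts among 10168 genes, were Slc31a1 (r = 0.963, Spearman's rho = 0.857), a copper importer, Ctsa (r = 0.962, rho = 0.952), a lysosomal carboxypeptidase, and Aldh1a1 (r = 0.948, rho = 0.691), a retinaldehyde dehydrogenase. The points share their libraries and depths, and floxed 1 was the highest library for all 3. Aldh1a1 had 8416, 6507, 3963 and 4310 normalized counts in the floxed group, against 4591, 3771, 4501 and 4352 in the Adipoq-F2-KO group. Slc31a1 varied far less, between 2321 and 3077 normalized counts, and Ctsa between 1240 and 1773.

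Of the kinases that commit the head groups, Chka gave the only other unadjusted p below 0.05 among the members. Chka (ENSMUSG00000024843, chr19:3851773-3894369, plus strand) encodes choline kinase alpha. Its normalized counts were 5904, 3813, 3053 and 6296 in floxed libraries 1 to 4, against 3896, 4076, 2975 and 2967 in Adipoq-F2-KO libraries 1 to 4. Floxed 1 and 4 stood apart at the top, and 2 of 4 Adipoq-F2-KO libraries lay below all floxed controls. The means were 4767 ± 1579 (SD, n = 4) and 3478 ± 590.5 (SD, n = 4). Chka had a log2 fold change of −0.45 (SE 0.23, 95% interval −0.90 to −0.01), with an unadjusted p of 0.0474 and an adjusted p of 0.9998 in DESeq2.

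The sign of the Chka difference held under all 17 alternatives, and the unadjusted p was below 0.05 in 9 of them. The log2 fold change was −0.29 without floxed 4 and −0.62 without floxed 3 (DESeq2, adjusted p = 0.0940). Chka also followed depth: the 3 shallow libraries, at 2967 to 3053 normalized counts, lay below all 5 deep ones, whose lowest value was 3813. With the depth class as a term the log2 fold change was −0.29 (DESeq2, unadjusted p = 0.0854). An antisense gene, AC133523.2, lies opposite 1.37% of the Chka exon bases, with 16.4, 13.7, 6.27 and 22.4 normalized counts in the floxed group, against 4.74, 11.8, 4.00 and 7.52 in the Adipoq-F2-KO group (log2 fold change −1.05, SE 0.59; DESeq2, unadjusted p = 0.0748, adjusted p = 0.9998). The raw counts of AC133523.2 were 2 to 29. Over the floxed libraries 4 was its highest and 3 its lowest, as for Chka. Over the Adipoq-F2-KO libraries both genes were highest in 2, while Chka was lowest in 4 and AC133523.2 in 3.

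Chkb (ENSMUSG00000022617, chr15:89426360-89429908, minus strand), the beta isoform of choline kinase, was low, at 90.9, 65.9, 60.6 and 77.4 normalized counts in the floxed group, against 67.1, 65.1, 54.1 and 69.6 in the Adipoq-F2-KO group. The groups overlapped, and the log2 fold change was −0.22 (SE 0.22, 95% interval −0.65 to 0.22). Exons of Gm44502, a gene model on the same strand with no count in any library, cover 50.7% of its exon bases, so its counts are uncertain. Per kilobase of exon, Chka was 10.9 to 20.7 times Chkb, a ratio of 16.2 ± 3.37 (SD, n = 4) in the floxed group, against 13.9 ± 2.18 (SD, n = 4) in the Adipoq-F2-KO group. The size of this ratio depended on the length used: it was 22.5 to 42.9 by the longest transcript and 5.35 to 10.2 by exon bases free of genes on the same strand.

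Etnk1 (ENSMUSG00000030275, chr6:143167221-143232307, plus strand) encodes ethanolamine kinase. It had 3585, 3507, 2898 and 3855 normalized counts in the floxed group, against 3270, 3458, 2669 and 2777 in the Adipoq-F2-KO group. The lowest values were those of the 3 shallow libraries (2669 to 2898), below all deep ones (3270 to 3855). Its log2 fold change was −0.19 (SE 0.13, 95% interval −0.44 to 0.07). Chka and Etnk1 were thus the 2 of 9 members that were lower in every shallow than in every deep library, a pattern found in 7.06% of all tested genes (13.9% in either direction). Because the shallow class holds 1 floxed and 2 Adipoq-F2-KO libraries, depth moves with genotype, and its part in these differences was not tested beyond the fit with the depth class as a term, where Etnk1 was at −0.11 (DESeq2, unadjusted p = 0.187). The same 3 libraries held the high adipocyte marker counts (Adipoq itself at 22.6 to 123.4 normalized counts, against 0 to 1.86 in the deep libraries), so depth and adipocyte content cannot be told apart here.

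The enzymes that follow the kinases and form CDP-choline and CDP-ethanolamine did not pass the test. Pcyt1a (ENSMUSG00000005615, chr16:32430921-32475070, plus strand), of the choline branch, had 3467, 3801, 3507 and 3231 normalized counts in the floxed group, against 3997, 4810, 3468 and 3591 in the Adipoq-F2-KO group. The deep Adipoq-F2-KO libraries lay above all floxed controls and the shallow ones among them. The log2 fold change was 0.18 (SE 0.13, 95% interval −0.06 to 0.43), and in the 5 deep libraries alone it was 0.33 (DESeq2, unadjusted p = 0.0257, adjusted p = 0.569). Without Adipoq-F2-KO 2 it was 0.07 (DESeq2, unadjusted p = 0.488). Slc51a, a bile acid transporter subunit on the opposite strand, overlaps 7.65% of the Pcyt1a exon bases.

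Pcyt2 (ENSMUSG00000025137, chr11:120610087-120617936, minus strand), of the ethanolamine branch, had 3589, 3460, 2486 and 3931 normalized counts in the floxed group, against 2985, 3236, 3091 and 3059 in the Adipoq-F2-KO group. Floxed 3 was the lowest of all 8 libraries, and the other floxed libraries were above all Adipoq-F2-KO libraries. The log2 fold change was −0.12 (SE 0.14, 95% interval −0.40 to 0.15), and it ran from −0.24 without floxed 3 (DESeq2, unadjusted p = 0.00869, adjusted p = 0.267) to −0.04 without floxed 4 (DESeq2, unadjusted p = 0.772), with −0.05 when depth class was a term. Per kilobase, the ratio of Pcyt1a to Pcyt2 was 0.63 ± 0.15 (SD, n = 4) in the floxed group, against 0.75 ± 0.10 (SD, n = 4) in the Adipoq-F2-KO group, with ranges that overlapped (0.482 to 0.827 and 0.658 to 0.872).

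The transferases that complete the phospholipids did not pass the test either. Chpt1 (ENSMUSG00000060002, chr10:88452745-88504073, minus strand), a cholinephosphotransferase, had 2951, 2613, 2457 and 2725 normalized counts in the floxed group, against 2471, 2366, 3053 and 2613 in the Adipoq-F2-KO group, with a log2 fold change of −0.04 (SE 0.11, 95% interval −0.26 to 0.18). Cept1 (ENSMUSG00000040774, chr3:106502260-106547802, minus strand), which accepts both head groups, had 1098, 1110, 1108 and 1054 normalized counts in the floxed group, against 1340, 1193, 1203 and 1047 in the Adipoq-F2-KO group. Of the Adipoq-F2-KO libraries 3 lay above all floxed controls and 1 below them, and the log2 fold change was 0.14 (SE 0.10, 95% interval −0.06 to 0.33). Dennd2d lies opposite 24.7% of the Cept1 exon bases and had a log2 fold change of 0.02 (SE 0.11). The remaining exon overlaps with members are also on the opposite strand. C730034F03Rik covers 10.5% of the Chkb exon bases (log2 fold change −0.39, SE 0.43) and Sycp3, a meiotic protein gene, 7.93% of those of Chpt1 (−0.03, SE 0.36). Gm16066 (Chka), 2210020O09Rik (Pcyt1a), Dram2 (Cept1) and 1700126G02Rik (Etnk1) each share 1.44% or less.

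Selenoi (ENSMUSG00000075703, chr5:30232581-30272427, plus strand), the selenoprotein that transfers phosphoethanolamine to diacylglycerol, had 5010, 4369, 4774 and 3729 normalized counts in the floxed group, against 5606, 4632, 4196 and 5448 in the Adipoq-F2-KO group. The groups overlapped, with 2 Adipoq-F2-KO libraries at the top, and the log2 fold change was 0.15 (SE 0.14, 95% interval −0.11 to 0.42). Across Chkb, Etnk1, Pcyt1a, Pcyt2, Chpt1, Cept1 and Selenoi the unadjusted p in DESeq2 ran from 0.148 to 0.744 and the adjusted p was 0.9998. Over the 17 alternatives the log2 fold change ran from −0.28 to −0.09 for Chkb, from 0.08 to 0.22 for Cept1 and from 0.08 to 0.23 for Selenoi. The intervals give the sizes of difference that these libraries leave possible.

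Pemt (ENSMUSG00000000301, chr11:59970614-60046489, minus strand), which methylates phosphatidylethanolamine to phosphatidylcholine and is mainly a liver enzyme, was the member with too few reads to test. It gave 10, 11, 5 and 2 raw counts in the floxed group, against 6, 15, 1 and 2 in the Adipoq-F2-KO group, and 3 of these 8 values were at or below the floor of 3 counts. The normalized counts were 5.97 ± 3.64 (SD, n = 4) and 4.95 ± 3.11 (SD, n = 4).

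Members were also compared with each other, as normalized counts per kilobase of exon, averaged over the 8 libraries. Pcyt2 was the highest, at 743.1, followed by Pcyt1a at 503.8, Cept1 at 367.2, Selenoi at 359.4, Chka at 342.9, Chpt1 at 319.1 and Etnk1 at 229.8. Phospho1 at 26.8, Chkb at 22.5 and Pemt at 2.59 came last. Between neighbours in this order the ranges over libraries did not overlap from Pcyt1a to Cept1, from Chpt1 to Etnk1, from Etnk1 to Phospho1 and from Chkb to Pemt. Pcyt2 was above Pcyt1a in 8 of 8 libraries, although their ranges overlapped.

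Among Cept1, Selenoi, Chka and Chpt1, each was above the next in only 5 or 6 of 8 libraries. The same held for Phospho1 and Chkb (6 of 8). The order depended on the length used. With the longest transcript in place of all exons, Chka came second at 886.2 normalized counts per kilobase and Cept1 seventh at 406.6. With only the 211 bases that Phospho1 shares with no gene on its strand, its level would be 257.6 ± 103.7 (SD, n = 8) per kilobase, within the range of the other pathway enzymes.

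**Figure D4:**
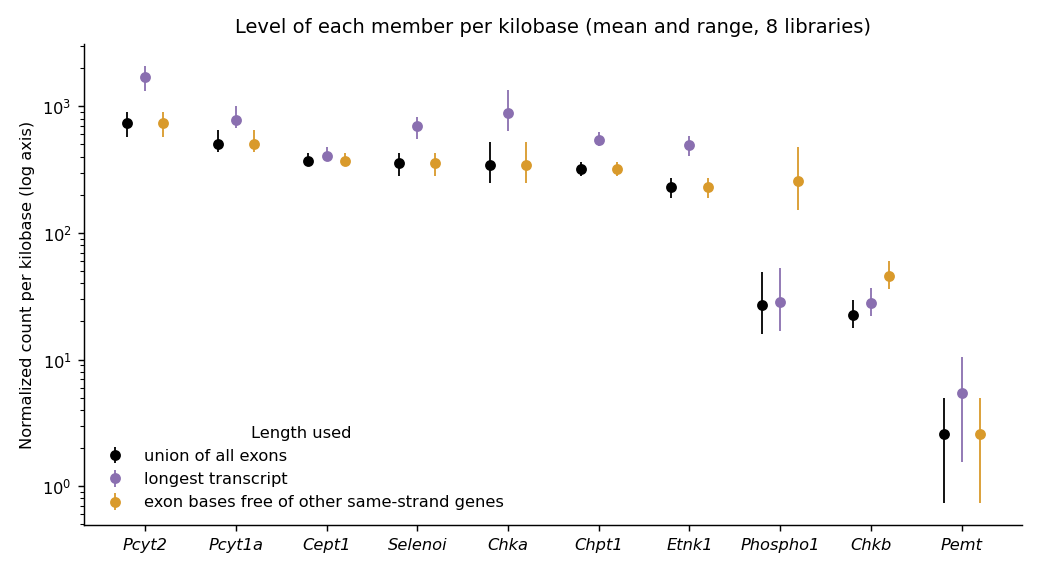
Level of each member per kilobase (normalized count, log axis; points are means and bars the range of 8 libraries), with the length taken as all exon bases (black), the longest transcript (purple) or exon bases free of other genes on the same strand (yellow). Phospho1 moves from 26.8 by all exon bases to 257.6 by free bases, and no other member moves as far with the choice of exon bases.

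The wider head group pathway was read from 8 lists holding 65 genes, of which 57 could be tested. None passed an adjusted p of 0.05, and 1 (Sgms2) had an unadjusted p below 0.05. That count was 8 without floxed 3, 7 in the deep libraries, 5 without Adipoq-F2-KO 2 and 3 without floxed 4, where the counts over all genes, 485 with all libraries, were 1310, 888, 532 and 276. Of their log2 fold changes 28 were above 0 and 29 below it, with a median of −0.00, and for 47 of 57 the 95% interval lay within a log2 fold change of 1. Sgms2 (sphingomyelin synthase, which moves the phosphocholine head group from phosphatidylcholine to ceramide) had 1560, 1649, 1759 and 1291 normalized counts in the floxed group, against 1887, 1940, 1852 and 1997 in the Adipoq-F2-KO group. All 4 Adipoq-F2-KO libraries lay above all 4 floxed controls, as in 1.10% of all tested genes. The log2 fold change was 0.30 (SE 0.11, 95% interval 0.08 to 0.52), with an unadjusted p of 0.00856 and an adjusted p of 0.9998 in DESeq2. The unadjusted p was below 0.05 in all 17 alternatives, and the adjusted p ran from 0.126 to 1.

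The most abundant gene of each list did not pass the test. Among 10 genes of choline and ethanolamine uptake (7 tested, 3 above 0 and 4 below), the choline transporter Slc44a1 had a log2 fold change of 0.14 (SE 0.13). Of the 3 isoenzyme genes and relatives, Phospho2, the paralogue of Phospho1, had 158.7 to 228.3 normalized counts in the floxed group, against 171.1 to 189.9 in the Adipoq-F2-KO group, and a log2 fold change of −0.08 (SE 0.17). Pcyt1b and Etnk2 were minor forms: per kilobase, Pcyt1a was 134.7 to 413.6 times Pcyt1b in the 7 libraries with Pcyt1b reads, and Etnk1 was 28.0 to 107.5 times Etnk2. Among 20 genes that release head groups (18 tested, 8 above 0 and 10 below), Enpp7, the alkaline sphingomyelinase of the brush border, had a log2 fold change of −0.12 (SE 0.21).

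For choline oxidation (4 of 7 genes tested, 3 above 0), Chdh, choline dehydrogenase, was at 0.01 (SE 0.08). For phosphatidylserine, inositol and cardiolipin synthesis (9 of 9 tested, 3 above 0 and 6 below), Cds1, a CDP-diacylglycerol synthase, was at 0.10 (SE 0.09). For the lysophospholipid acyltransferases (7 of 7 tested, 5 above 0), Lpcat3, which remodels phosphatidylcholine in enterocytes, was at −0.03 (SE 0.11). For the sphingolipid list (6 tested, 3 above 0) Sgpl1, sphingosine phosphate lyase, was at −0.06 (SE 0.13), and for diacylglycerol supply (3 tested, 2 above 0) Lpin2, a phosphatidate phosphatase, was at 0.11 (SE 0.24).

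A pair of genes in these lists, named after their values were seen, passed an adjusted p of 0.05 when floxed 3 was left out, a setting in which 109 of all tested genes (0.690%) did. Flvcr1, a choline and heme transporter, had 2816, 3357, 1378 and 2544 normalized counts in the floxed group, against 1674, 2257, 1946 and 1747 in the Adipoq-F2-KO group. Its log2 fold change was −0.41 (DESeq2, unadjusted p = 0.0815) with all libraries and −0.61 without floxed 3 (DESeq2, adjusted p = 0.00856). Without Adipoq-F2-KO 2 it was −0.50 (DESeq2, unadjusted p = 0.0453). The unadjusted p was below 0.05 when floxed 3 or Adipoq-F2-KO 2 was left out and in the 5 deep libraries, and in no other alternative. Plb1, a phospholipase B of the intestinal brush border, ranged from 5.45 to 7984 normalized counts in the floxed group, against 30.4 to 6620 in the Adipoq-F2-KO group, and its log2 fold change went from 0.60 (SE 2.07) to 7.74 without floxed 3 (DESeq2, adjusted p = 1.2e-04). Its values followed depth, at 4995 to 7984 in the 3 shallow libraries and 5.45 to 536.0 in the 5 deep ones, and Flvcr1 averaged 1690 in the shallow and 2530 in the deep libraries (ranges 1378 to 1946 and 1674 to 3357). Floxed 3 is the one shallow floxed library, so without it both shallow libraries are Adipoq-F2-KO. Depth and adipocyte content then run partly with genotype, and their part in these calls and in the 109 genes was not tested. Within the 5 deep libraries Flvcr1 was at −0.565 (DESeq2, unadjusted p = 0.00371, adjusted p = 0.225). There it had 2816, 3357 and 2544 normalized counts in floxed 1, 2 and 4, against 1674 and 2257 in Adipoq-F2-KO 1 and 2. Of all tested genes 12.1% were lower without overlap in these 5 libraries. Under the other alternatives the log2 fold change of Plb1 ran from −0.12 (without Adipoq-F2-KO 4) to 4.79 (limma-voom), none with an adjusted p below 0.05 (without Adipoq-F2-KO 3 or 4, DESeq2 gave no p). It was 0.60 with TMM factors, 0.62 with edgeR, 0.18 to 0.19 without floxed 1, 2 or 4, 0.25 without Adipoq-F2-KO 3, 2.59 with depth class as a term, 3.64 with the smooth muscle covariate, 4.02 with the replicate block and 4.30 in the deep libraries. Floxed 3 was also the library with the highest smooth muscle sum, at 30430.

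**Figure D5:**
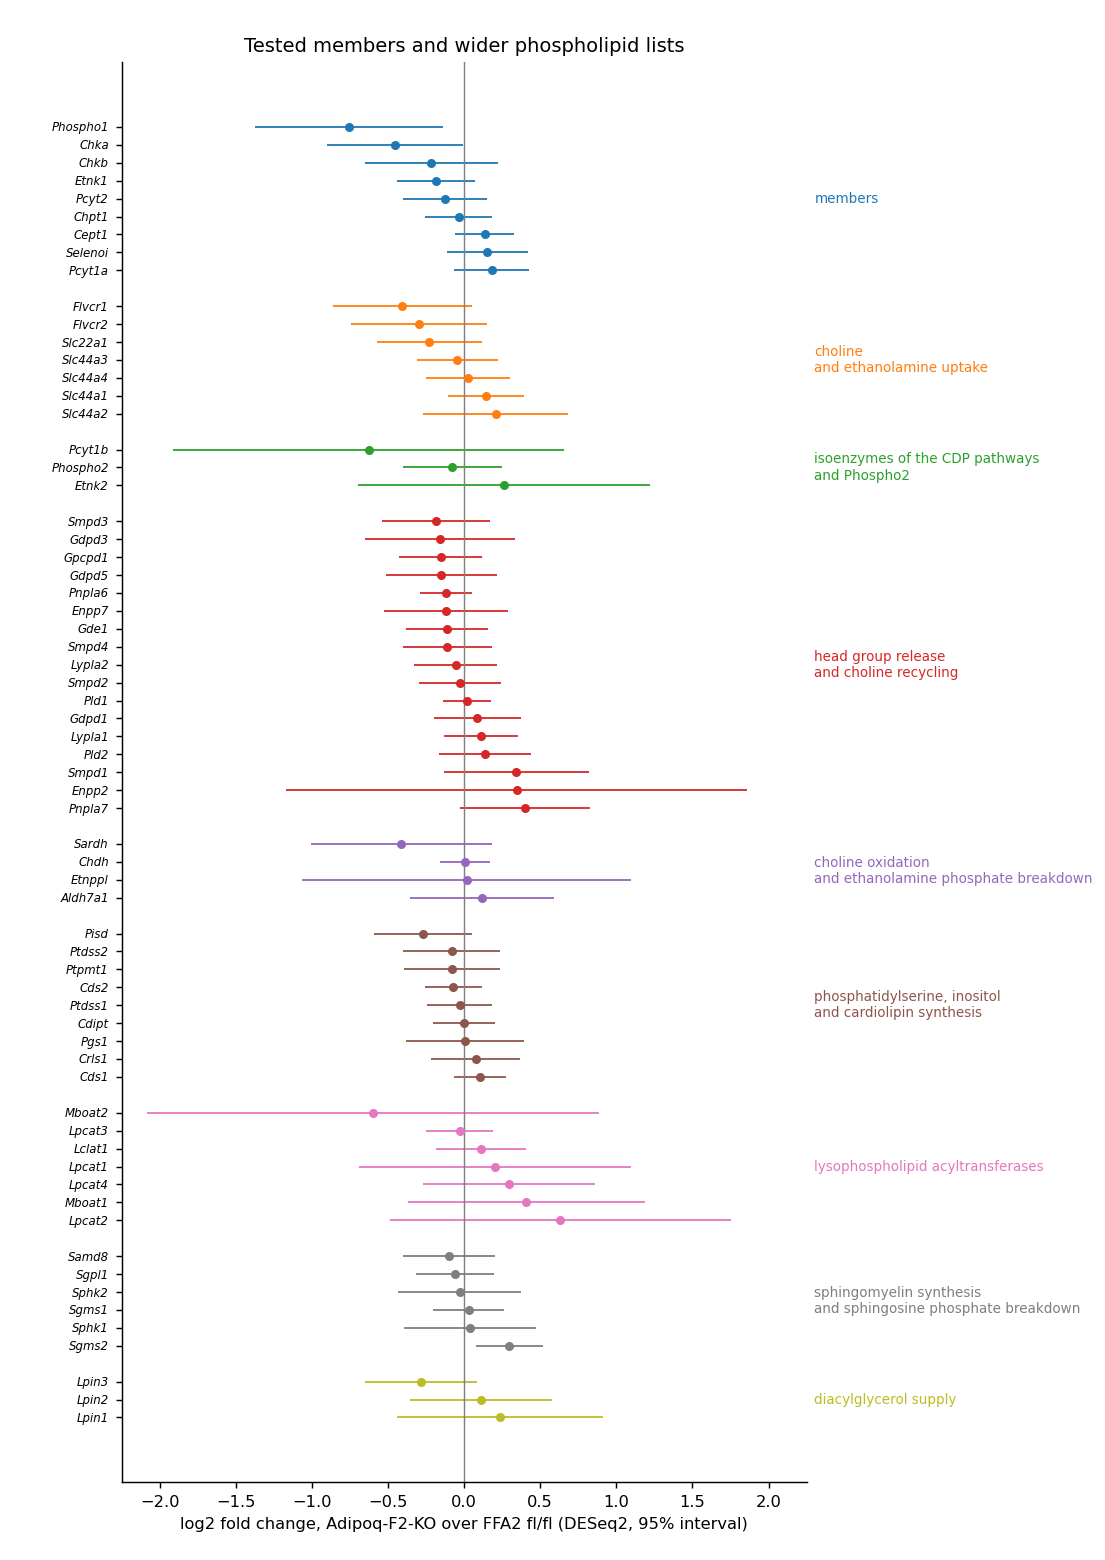
Log2 fold change, Adipoq-F2-KO over floxed controls (horizontal axis, points with 95% intervals from DESeq2), of the tested members and of the tested genes of the 8 wider lists, grouped by list and sorted by value, without Plb1, whose interval (−3.45 to 4.65) exceeds the axis. The intervals of Phospho1 and Chka lie below 0, that of Sgms2 lies above it and all others include 0.

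Markers of other cell types had the following values. All 10 smooth muscle markers had a log2 fold change below 0 (median −0.85), and 0 of 10 had an unadjusted p below 0.05. That direction rested on floxed 3: without it 9 of 10 were above 0 (median 1.15), again with 0 of 10 below an unadjusted p of 0.05. Of 10 macrophage markers 9 were above 0 (median 0.54, 1 with an unadjusted p below 0.05), with sums of 250.7 to 612.5 in the floxed group, against 450.7 to 784.0 in the Adipoq-F2-KO group, and of 10 lymphocyte markers 8 were above 0 (median 0.31, sums 2375 to 4905 and 3437 to 4513). The 4 tested adipocyte markers of 8 were below 0 (median −0.33, Cidec alone with an unadjusted p below 0.05, sums 1484 to 2221 and 979.6 to 1600). Most of these sums was Cidec, at 942.4 to 1706. Cidec had these values in the deep libraries too, where Adipoq was at 0 to 1.86, so the sums do not follow the other adipocyte markers. Without floxed 3, Cidec stayed below 0 at −0.55 (DESeq2, adjusted p = 0.00411), while Fabp4 and Car3 turned to 2.98 and 3.18 (neither with an adjusted p below 0.05) and Cfd was not among the tested genes. With the smooth muscle score as a covariate the log2 fold change was −0.70 for Phospho1 and −0.33 for Chka. The part of the other cell types in the members' differences was not tested.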

How the data were processed

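RNA of jejunal mucosa was read from poly-A selected, stranded, single-end 75 bp libraries of 4 FFA2 fl/fl and 4 Adipoq-F2-KO samples, grouped by title. According to the study's methods and the submitters' processing notes, the authors trimmed reads with Trimmomatic, aligned them with STAR (GRCm38/mm10) and counted them per gene with featureCounts. The deposited values are raw counts, 1 set per library, neither normalized nor pooled. Versions, the annotation release, the strand setting and the treatment of reads on more than 1 gene were not stated, so genes that overlap others are uncertain.

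Symbols, lengths and overlaps came from GENCODE M21 (52073 of 56980 identifiers had a symbol). Genes that reached 10 counts in 4 or more libraries entered DESeq2 1.42.0 (R 4.3.3), with genotype as the only term, two-sided, and Benjamini-Hochberg adjustment over the 15986 tested genes, 8 of which DESeq2 left without an adjusted p. DESeq2 was the main test because the study used it. The alternatives were TMM factors, edgeR 4.0.16 (quasi-likelihood), limma-voom 3.58.1, no filter, at least 20 counts in all libraries, a replicate block, the 5 deep libraries, a smooth muscle covariate, leaving out each library, and, added after seeing the data, depth class as a term and the marker lists without floxed 3. No pair of libraries within a genotype agreed within sampling noise (chi-square per gene 5.04 to 56.6).

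All members were named, together with the genes that overlap them, the wider-list genes with an unadjusted p below 0.05 or no overlap between genotypes, the most abundant gene of each list, and the 3 genes (mean of at least 50 normalized counts, log2 with an offset of 0.5) most correlated with Phospho1. Other genes were named after their values were seen. The members and lists were chosen with earlier results of these data known. Reads carried no molecular identifiers, so counting error is of reads.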

Additional observations from a re-analysis of the deposited data

Results flagged for a closer look

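Of 40 groups of 4 libraries looked at (the members, Sgms2, Plb1 and the most abundant gene of each list, in each genotype), 2 held a library that stood apart by Dixon's test, and chance marks about 1 in 20. Plb1, a brush border phospholipase B, had 7984 normalized counts in floxed 3 against 5.45 to 28.6 in the other floxed libraries. In the Adipoq-F2-KO libraries it was also uneven, at 536.0, 30.4, 4995 and 6620, so its high values included all 3 shallow libraries. Cds1, a CDP-diacylglycerol synthase, had 4666 normalized counts in Adipoq-F2-KO 2 against 3918 to 4045 in the other Adipoq-F2-KO libraries. No member of the head group set was marked in this way.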

How the results depend on the processing

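No member passed an adjusted p of 0.05 under any of the 17 alternatives. All members kept the sign of their log2 fold change, except Chpt1, which ran from −0.12 to 0.012 when single libraries were left out (above 0 without floxed 1 and without Adipoq-F2-KO 2). The number of members at an unadjusted p below 0.05, 2 as reported, was 1 with edgeR, limma-voom and depth class as a term, and 0 to 4 when single libraries were left out. It was 4 without floxed 3 (Phospho1, Chka, Pcyt2 and Etnk1) and 0 without floxed 1, where the count over all genes went from 485 to 1310 and 323. Over all genes, 6 were called as reported, 2 with edgeR, 1 with limma-voom, 3 without a filter, 3 with depth class as a term, 78 in the 5 deep libraries, and 1 to 109 when single libraries were left out, with 109 without floxed 3, 18 without floxed 2, 2 without floxed 4 and 1 without floxed 1. Pathway genes called went from 0 to 2 without floxed 3, and those at an unadjusted p below 0.05 from 1 to between 1 and 8 over all alternatives, also 3 with depth class as a term and 2 with limma-voom, the replicate block, the smooth muscle covariate and without Adipoq-F2-KO 3. With the replicate block 11 genes were called against 6, and Phospho1 was at −0.71. The labels do not say whether the numbers in the sample titles pair the samples. Deviations of same-numbered libraries correlated over 0.1 in 2 of 4 pairs (0.54, 0.29, 0.02 and −0.41), and 2 of 4 floxed libraries correlated best with their own number. These deviations also carry differences in depth and cell content, so they cannot decide whether the samples are paired. The 3 numbers shared by the names of the count files, another numbering, gave correlations of −0.35, −0.11 and 0.04.

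Among the abundant list genes, which lay close to 0, Chdh turned to −0.0028 with TMM, −0.00086 with edgeR, −0.0046 with limma-voom, −0.067 in the deep libraries and −0.011 with the depth term. Enpp7 and Sgpl1 turned to 0.27 and 0.088 in the deep libraries. Lpcat3 turned to 0.0040 with the smooth muscle covariate and 0.023 with the depth term. When single libraries were left out, Lpcat3 ran from −0.11 to 0.041, Enpp7 from −0.23 to 0.11, Phospho2 from −0.16 to 0.033, Chdh from −0.031 to 0.045, Lpin2 from −0.073 to 0.29, Sgpl1 from −0.14 to 0.012 and Plb1 from −0.12 to 7.74. The causes were not tested. Depth limits Phospho1, Chkb and Pemt most, at 21 to 24 raw counts of Phospho1 in the shallow libraries.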
